A study of Rattus norvegicus with 18 samples.

Results

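The genes described here are the 51 whose lowest value in 6 libraries of irradiated, formula-treated intestine lay above their highest value in 6 control libraries. They were found by rule among the 14393 genes of the deposited table (30562 in all) that averaged at least 1 CPM (a gene's count scaled to the library total) over 18 libraries. With Bmal1, which passes the same rule and was set aside as the reference gene, 52 genes or 0.361% of the 14393 separated the groups in this direction, and 66 separated them in the other. Since the members were chosen by their CPM in formula and control libraries, the difference between those groups is given as a description without support from a test.

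RNA was sequenced in bulk from the intestine of wild-type Sprague-Dawley rats, an outbred stock, in 3 groups of 6. Control rats had no treatment, irradiated rats had a single 10 Gy dose of X-rays, a model of radiation enteritis, and the formula group had the same dose followed by Changbing Formula, so that no group had the formula without irradiation. All animals were kept on a light/dark cycle, and the labels give no hour of collection, time after irradiation, formula dose, intestinal segment, sex or age. The free-text description of every sample speaks of untreated animals, which contradicts the titles and treatments given for 12 of them, and the titles decided the grouping used here.

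Bmal1 encodes a transcription factor of the circadian clock. It pairs with Clock on E-box elements and drives genes such as the Per and Cry families, whose proteins act back on the pair, while receptors of the Rev-erb and Ror families set the rhythm of Bmal1 itself. In the intestine the clock is known for daily rhythms of epithelial renewal, digestion and nutrient transport.

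The table names genes by Ensembl identifier only. ENSRNOG00000014448, on the forward strand of chromosome 1 from 167331633 to 167430231 (mRatBN7.2), is taken here as Bmal1, a name that the table itself does not give. Since the other identifiers could not be paired with symbols, the members carry no gene names, roles or promoter sequences here. They are numbered 1 to 51 by the ratio of the lowest formula CPM to the highest control CPM, widest gap first. Known clock genes, cell type markers and pathway lists could not be looked up for the same reason, and the labelled tissue was not checked against its markers.

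Library totals ran from 33598572 to 48398184 counts. Control 2 and irradiated 4 stood apart on the first principal component (45.7% of the variance), at 149.3 and 181.9 against -41.6 to 32.1 for the other 16 libraries. The mitochondrial chromosome took 39.7% of the counts of irradiated 5 and 5.77% of those of irradiated 4, against 9.30% to 27.3% in the other libraries. These shares enter every CPM value, and scalings that reduce their weight are given beside the results on the irradiated libraries.

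Bmal1 was lowest in controls and highest with the formula. Its CPM was 24.9, 16.5, 24.5, 15.6, 14.8 and 11.2 in control 1 to 6, and 74.6, 70.0, 53.1, 97.2, 88.2 and 94.5 in formula 1 to 6. In irradiated 1 to 6 it was 24.04, 50.5, 50.3, 21.1, 38.1 and 47.6. All 6 irradiated libraries lay below the lowest formula library, and 4 of them lay above the highest control library. Against control, the irradiated mean of 38.6 ± 13.2 CPM (SD, n = 6) was 2.16-fold higher, but edgeR's quasi-likelihood test did not pass adjustment over all genes (log2 fold change 1.13, SE 0.27, adjusted p = 0.998).

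The members differed widely in the size of their change, whose direction the rule fixed. The ratio of the formula mean to the control mean ran from 1.17 (member 41) to 6.81 (member 32), with a median of 1.79. It was at least 2 in 18 members and below 1.5 in 10. Gaps between the groups were narrow: the lowest formula value was less than 1.1 times the highest control value in 29 members and at least 1.2 times in 10. In bulk tissue, a change in the share of a cell type and a change in RNA per cell cannot be told apart.

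Member 1 (ENSRNOG00000026585, chr14:34581240-34604541, forward strand, 5 exon blocks) had the widest gap. Its lowest, median and highest CPM were 6.87, 12.4 and 14.6 in controls and 25.1, 33.9 and 43.9 with the formula. Irradiated 1 to 6 had 27.2, 22.7, 20.8, 0.830, 11.6 and 31.8 CPM, so that 4 irradiated libraries lay above every control and irradiated 4 lay below every other library.

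Member 3 (chr17:12280484-12295858, forward) had the second largest ratio of means, 4.84. Controls had 1.14, 4.68 and 11.9 CPM (lowest, median, highest), irradiated libraries 6.86, 15.99 and 26.1, and formula libraries 16.8, 28.2 and 47.6. Its irradiated values ran from within the control range into the formula range. The larger ratio of member 32 (chr13:83670183-83680065, forward) came from 1 library: formula 2 had 13.7 CPM, while the formula median was 1.22 and the control median 0.510.

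Among the other members with wide gaps, member 4 (chr10:27408747-27749637, forward) had 32.4, 52 and 84.2 CPM in controls and 117, 132 and 167 with the formula. In irradiated 2 it reached 211 CPM, above every formula library, and in irradiated 4 it was 2.54, below every control. Member 10 (chr17:30544106-30709790, forward) had 56.1, 118 and 133 CPM in controls, 162, 177 and 202 with the formula, and 5.503 to 180 in irradiated libraries. The same wide irradiated spread was seen in member 8 (chr12:1197100-1330883, reverse), from 4.60 CPM in irradiated 4 to 75.3 in irradiated 2, and in member 9 (chr6:123713507-123807272, reverse), from 2.82 to 63.4 in the same libraries. Members 2 (chr5:135069026-135070082, forward), 5 (chr17:18737533-19142360, forward), 6 (chrX:104355316-104453473, forward) and 7 (chr20:18433695-18528658, reverse) complete the 10 widest gaps, with ratios of means of 2.499, 1.88, 2.41 and 1.64.

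The 8 most abundant members averaged at least 100 CPM over all libraries, and their formula means were 1.17 to 2.35 times their control means. Member 30 (chr13:29733840-29793870, forward) had the highest mean over all libraries, 264 CPM, with 170 ± 78.6 in controls, 222 ± 212 in irradiated and 400 ± 75.1 in formula libraries (mean ± SD, n = 6 each). Member 16 (chr9:94161836-94174244, reverse) had 156 ± 36.1, 238 ± 106 and 355 ± 89.2 CPM, and member 15 (chr6:137219707-137312590, forward) 177 ± 19.8, 205 ± 43.5 and 268 ± 32.9. In each of these 3 members the irradiated mean lay between the others and the irradiated SD was the largest. Member 40 (chr7:125716015-125727894, reverse) and member 20 (chr12:10426777-10508750, reverse) had formula means 1.51 and 1.30 times the control means. Member 41 (chr8:118972754-119062027, reverse), the least changed, had 105 ± 4.82 CPM in controls and 124 ± 9.06 with the formula.

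**Figure D1:**
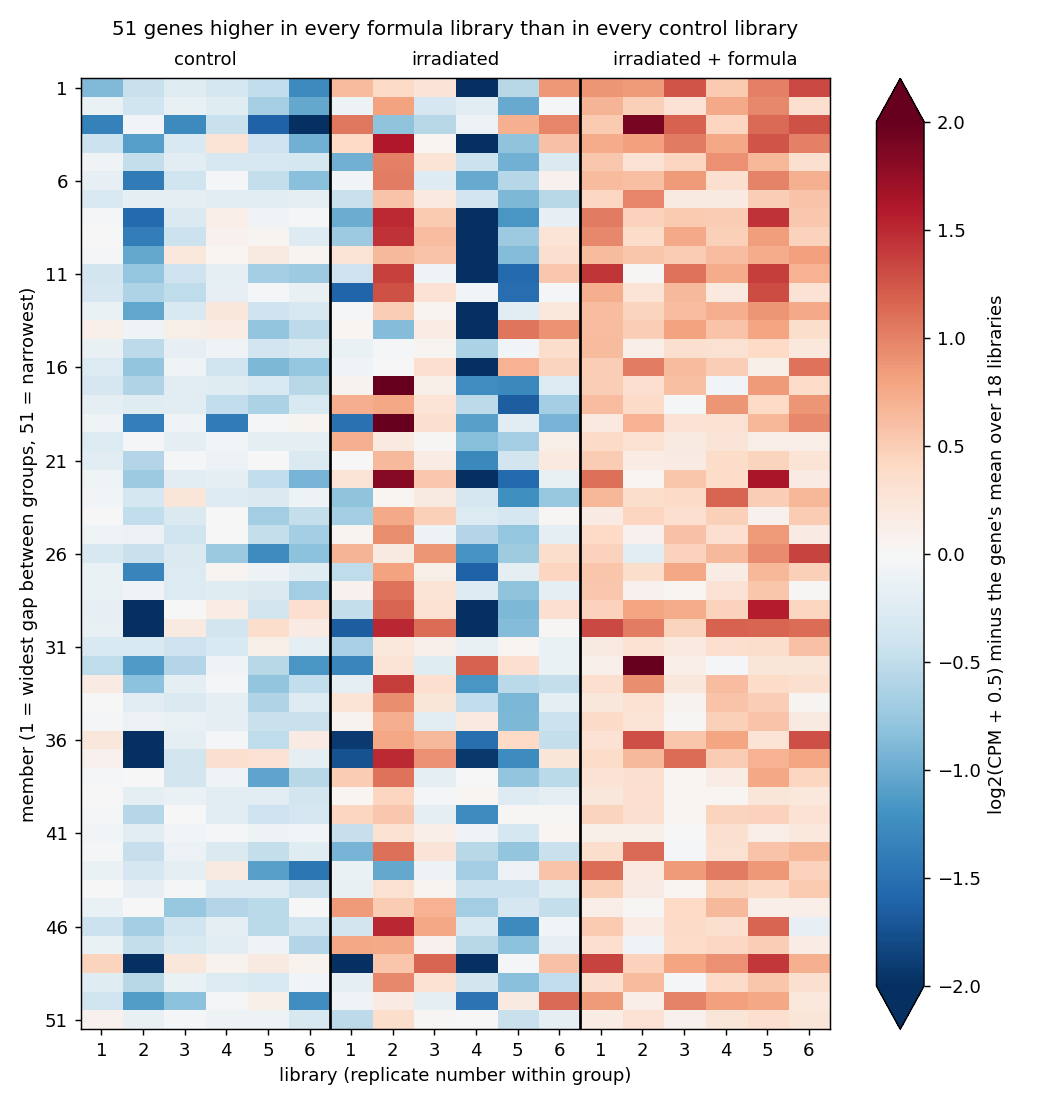
Each row is one of the 51 members and each column one of 18 libraries; colour is log2(CPM + 0.5) minus the gene's mean over the 18 libraries, and the scale ends at 2 in either direction. In each row every formula library is above every control library because the rule chose the members so, though values vary within these groups. Irradiated 2 is high and irradiated 4 and 5 are low in most rows.

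Some values sat at the edge of the rule. The lowest formula value exceeded the highest control value by a factor of 1.01 in members 49 (chr8:57391259-57470952, forward) and 50 (chr13:31351954-31396519, reverse), and both values of member 51 (chr10:91761807-91862488, reverse) printed as 73.1 CPM. The nearest genes outside had ratios of 0.999, 0.999 and 0.998. Scaling also moved the boundary: with TMM scaling (edgeR's correction for library composition) 79 genes met the rule, 37 of them members, and with the mitochondrial chromosome left out of the totals 76 did, 48 of them members. Control 4 was the highest control library in 16 members (10.8% of all genes above the CPM minimum), control 1 in 13 (13.5%) and control 2 in 4 (44.8%). Formula 2 was the lowest formula library in 16 members (32.3% of all genes) and formula 3 in 15 (25.4%), shares of the members near those of all genes.

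By position and gene structure, which the rule did not use, members were spread widely over the genome and tended to be long genes. They lay on 19 chromosomes, with 8 on chromosome 10 (15.7% of members, against 8.45% of genes with at least 1 CPM). The nearest neighbours, members 46 and 51, were 340778 bases apart. The median span from first to last exon was 79694 bases against 22836 for all genes above the CPM minimum, the median exonic length 3516 against 3041 bases, and the median number of exon blocks 13 against 10. These are descriptions without a test. Median abundance, which the rule's minimum bears on, was 27.0 CPM against 20.4. Exons of 9 members overlapped another annotated gene, on the opposite strand in 8, and since counting used no strand option, reads of such pairs cannot be told apart.

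The irradiated group, which the rule used only for the CPM minimum, lay mostly between the others by its mean. The irradiated mean CPM was between the control and formula means in 48 of 51 members (94.1%, against 30.3% of all genes above the CPM minimum). The exceptions were member 23, below the control mean, and members 17 (chr10:61623526-61687491, reverse) and 19 (chr1:174133288-174160184, forward), above the formula mean. In members 17 and 19 this came from irradiated 2 alone, with 169 and 25.1 CPM. Their other irradiated libraries reached at most 37.0 and 2.96 CPM, below the formula means of 47.0 and 3.53. The count of 48 also depended on irradiated 2: without it, the mean lay between in 31 members. The rule sets the outer means apart, so the share over all genes is not a matched background.

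On the log2 scale, with 0 at the control mean and 1 at the formula mean, the irradiated mean of the members had a median position of 0.22, with quartiles at 0.03 and 0.42. It was nearer to control in 42 members and nearer to formula in 9, and it fell below the control mean in 10. Member 45 (chr1:86001567-86006034, forward) lay nearest to formula, at 0.73, and member 10 lowest, at -0.62. The low position of member 10 came from irradiated 4 and 5, with 5.503 and 62.2 CPM, since the other 4 irradiated libraries lay above every control library, at 139 CPM or more.

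Member 23 (ENSRNOG00000039858, chr7:8347314-8353988, reverse strand, 10 exon blocks) was the only member with every irradiated library below every formula library. Such separation was seen in 6 of all 14393 genes (0.0417%), Bmal1 among them. Irradiated 1 to 6 had 3.68, 7.02, 7.72, 5.29, 2.63 and 3.82 CPM, against 8.84, 10.4 and 15.8 (lowest, median, highest) with the formula and 5.24, 5.95 and 8.17 in controls. The irradiated and control ranges overlapped, and 3 irradiated libraries lay below every control. Exons of this gene overlap a gene on the opposite strand. No member had every irradiated library above every control library, nor did any other gene (0%), and in 50 members the irradiated libraries overlapped both groups.

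**Figure D2:**
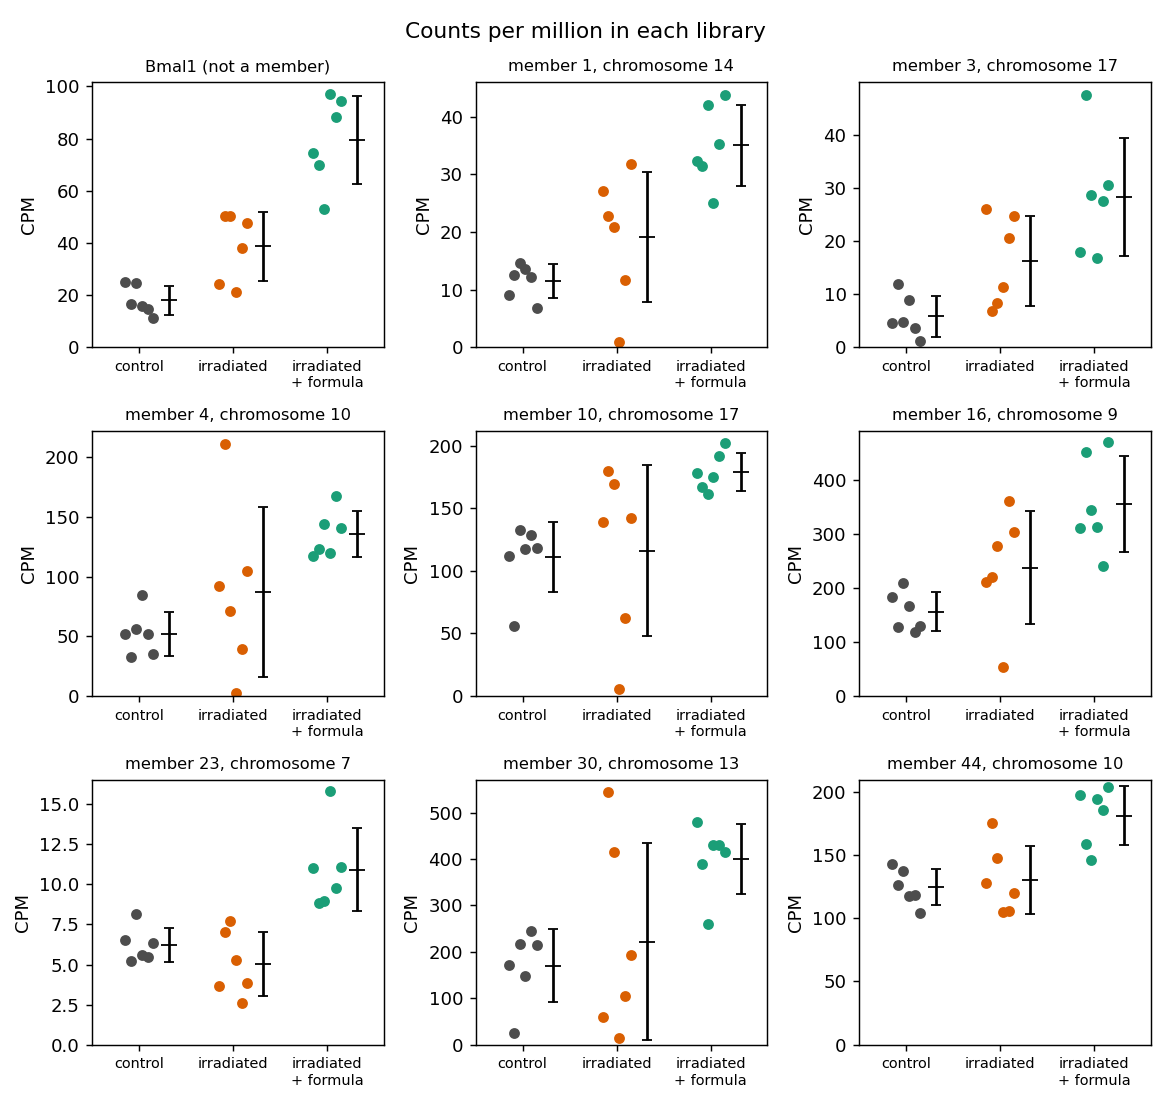
CPM in each library for Bmal1 and 8 members; points are libraries, and the bar beside each group is the mean with its SD (n = 6). Irradiated points of members 4, 10 and 30 run from below the lowest control to within the formula range (member 10) or above it (members 4 and 30), whereas those of member 23 stay below all formula points.

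The irradiated libraries differed among themselves across the members together. A member was counted as above the midpoint where a library exceeded the value midway, on the log2 scale, between the control and formula means. Irradiated 1 to 6 were above it in 18, 45, 32, 3, 6 and 22 of the 51 members, while control libraries were above it in 1 to 4 and formula libraries in 45 to 51, as the rule makes likely. The count of irradiated 2 fell within the formula range, that of irradiated 4 within the control range, and the other 4 lay between. With TMM scaling the 6 counts were 19, 41, 23, 1, 13 and 24, and with the mitochondrial chromosome left out of the totals 13, 45, 29, 1, 17 and 24.

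Irradiated 2 was the highest of all 18 libraries in 24 members and its median position was 1.38, beyond the formula mean. At the other end, irradiated 4 was the lowest of the 18 in 20 members and irradiated 5 in 11. The median coefficient of variation over the members was 55.2% in irradiated libraries, against 46.9% over all genes above the CPM minimum. In controls it was 23.2% and with the formula 19.4%, against 35.2% and 27.9% over all genes; low spread in these groups favours a gene under the rule. Irradiated 4 also stood apart on the first principal component and irradiated 5 held the highest mitochondrial share; the part of either in these counts was not tested.

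At the low end of the irradiated group, irradiated 4 had the least Bmal1 and the fewest members above the midpoint under all 3 scalings. At the high end the order of Bmal1 depended on the scaling. By column totals, irradiated 2 and 3 had the most Bmal1 (50.5 and 50.3 CPM) and the most members above the midpoint. With TMM scaling, irradiated 6 and 5 had the most Bmal1, at 52.7 and 48.8 CPM, and irradiated 3 and 2 followed at 46.1 and 43.4. The order was the same without the mitochondrial chromosome, at 65.5, 63.2, 61.0 and 57.8 CPM. Irradiated 2 had the most members above the midpoint under each scaling, so it led in the members but not in Bmal1 under both alternatives.

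**Figure D3:**
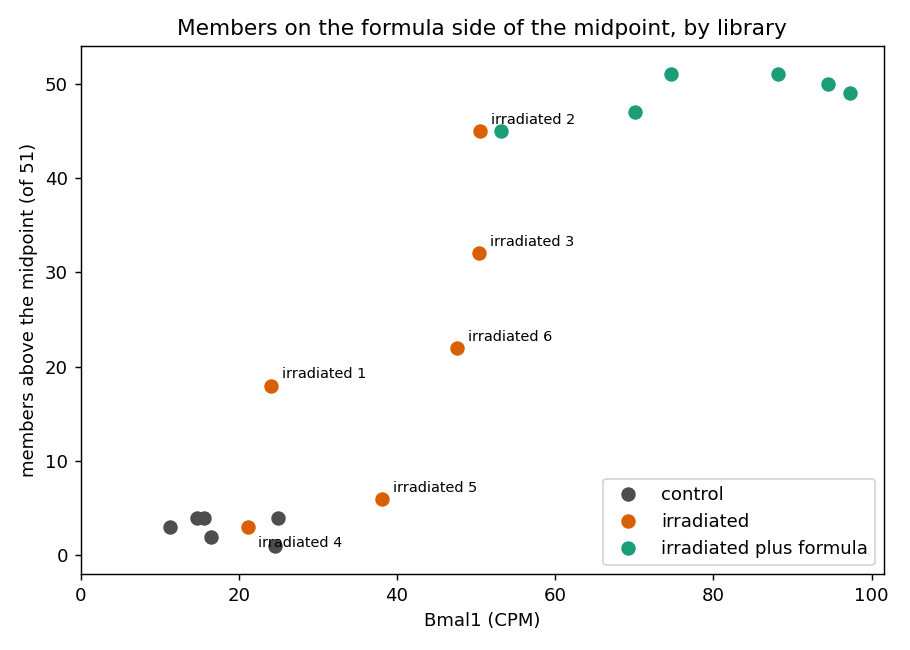
Bmal1 in CPM (horizontal axis) against the number of the 51 members above the midpoint of the control and formula means (vertical axis), for each of 18 libraries coloured by group. Values are by column totals, and irradiated libraries run from 3 members at 21.1 CPM to 45 at 50.5 CPM, an order of Bmal1 that changes at its high end with other scalings; control and formula libraries sit at the ends because the rule chose the members on them.

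In the test of irradiated against control, which shares its control libraries with the rule, edgeR called 0 of 51 members at an adjusted p below 0.05 (background 0% of 16593 genes). DESeq2 and limma-voom also called 0. The rule favours low control values, so the figures over all genes are not a matched background for the members. At an unadjusted p below 0.05, 2 members were higher, 3.92% against a background of 0.651%. These were member 3 (log2 fold change 1.64, SE 0.51, adjusted p = 0.998) and member 26 (chr3:118525349-118541080, reverse; 1.19, SE 0.48, adjusted p = 0.998), the latter named after its value was seen. The members' median log2 fold change was 0.31, against 0.01 over all genes, and it was above 0 in 49.

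Without irradiated 2 this median was 0.15, and without irradiated 4 it was 0.49. Without irradiated 4, 22 members were higher at an unadjusted p below 0.05, against 1.33% of all genes that were higher, and none passed adjustment. In either direction, 503 of 16686 genes were below 0.05. For 25 members the approximate 95% interval stayed within a 2-fold difference in either direction, and for the rest it reached further.

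The test of formula against irradiated shares its formula libraries with the rule. Members were chosen as high in every formula library, which favours higher values here. The figures over all genes are therefore not a matched background. By edgeR 0 of 51 members were called (background 0%), 13 were higher at an unadjusted p below 0.05 (25.5%, background 1.5%), and limma-voom called 0. Member 23 had the lowest p of all genes, with a log2 fold change of 1.198 (SE 0.21, adjusted p = 0.445 by edgeR). It was the 1 member that DESeq2 called (adjusted p = 3.9e-05), where 2 genes were called higher (background 0.0121%) and 6 lower. Bmal1, not a member, had a log2 fold change of 1.06 (SE 0.27, adjusted p = 0.770 by edgeR). Among the members alone, member 7 came next by edgeR's p at 0.78 (SE 0.21). Member 44 at 0.52 (SE 0.15) and member 51 at 0.40 (SE 0.12) came after it, each of these members with an adjusted p of 0.770. The median log2 fold change was 0.52 against -0.02 over all genes, and only member 19 was below 0, at -0.39 (SE 0.76).

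In the comparison that the rule used, formula against control, edgeR called 0 members, where the only gene it called higher was Bmal1 (background 0.00603%). At an unadjusted p below 0.05, 40 members were higher (background 2.45% for genes higher, with 948 of 16593 genes in either direction). DESeq2 called 9 members, all higher, against 22 genes higher (background 0.133%) and 25 lower. With sample weights, limma-voom called 28 members, all higher, against 194 genes higher (background 1.17%) and 305 lower. These counts follow from how the members were chosen.

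Within groups, most members were higher in libraries with more Bmal1. Correlations were taken over 18 libraries on log2(CPM + 0.5) after each group's mean had been subtracted, so differences between group means do not enter. The rule can still favour some patterns within the control and formula libraries. The values over all genes below are therefore not a matched background. Pearson's r had a median of 0.475 over the members, against 0.019 over all 14392 genes above the CPM minimum, Bmal1 left out. It was above 0 in 49 members (96.1%, against 52.1%) and at least 0.5 in 22 (43.1%, against 4.78%). The median of Spearman's rho was 0.410, against 0.082.

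In single genes this tracking did not pass adjustment. In a two-sided permutation test within groups (100000 permutations), 12 members had an unadjusted p below 0.05, all with positive r (23.5%, against 3.63% of all genes in either direction), and 0 passed adjustment over all genes (lowest adjusted p = 0.941). edgeR's test of a slope on Bmal1 within groups also called 0 members (background 0%), with a lowest adjusted p of 0.746. At an unadjusted p below 0.05, 6 members had a positive slope (11.8%, background 1.62% for positive slopes) and 0 a negative slope. In either direction, 877 of 16592 genes were below 0.05. DESeq2 called 0 members, against 10 genes with a positive slope (background 0.0603%) and 59 with a negative slope. With limma-voom 0 members were called. The slope was positive in 47 members, with a median of 0.45 log2 units per log2 unit of Bmal1, against -0.03 over all genes.

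Member 44 (chr10:78943479-79077797, forward) had the highest correlation, with r = 0.741 (permutation p = 0.00195, adjusted p = 0.941) and rho = 0.769. Its r was 0.981 in control, 0.595 in irradiated and 0.875 in formula libraries (n = 6 each). Its CPM was 104, 122 and 143 in controls (lowest, median, highest), 105, 124 and 175 in irradiated and 146, 190 and 204 in formula libraries. Its within-group slope by edgeR was 0.33 (SE 0.13, adjusted p = 0.746).

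Next came member 48 (chr16:69895422-69939429, forward), with r = 0.642, member 24 (chr2:39212949-39378924, reverse), with 0.6248, member 30, with 0.616, and member 21 (chr15:38924624-39084879, forward), with 0.598. In member 48, r was 0.988 in irradiated, 0.158 in control and 0.237 in formula libraries. In member 30 it was 0.942, 0.025 and 0.785. Member 48 had 0 counts in irradiated 4, which allows up to 0.0712 CPM (3 counts, counting error only), 0.108 CPM in irradiated 1 and 0.105 in control 2, against 3.86 to 9.46 in the other irradiated libraries and 5.61 to 11.3 with the formula.

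The weakest tracking was that of member 32 (r = -0.049), member 3 (-0.033), member 45 (0.061), member 20 (0.101) and member 38 (chr8:109395833-109455628, forward; 0.143). Member 3, among the most changed by group, had its highest irradiated value, 26.1 CPM, in irradiated 1, where Bmal1 was 24.04 CPM, and its lowest, 6.86, in irradiated 2, where Bmal1 was 50.5. Over the 6 irradiated libraries its r was -0.334, against a median of 0.610 over the members. The opposite direction did not hold in every library: irradiated 6, with 47.6 CPM of Bmal1, had 24.7 CPM of member 3. Member 23 had r = 0.425 over 18 libraries and 0.316 in the irradiated group.

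By group, the members' median r was 0.386 in controls, 0.610 in irradiated and 0.138 in formula libraries (n = 6 each). Over all genes the medians were 0.069, -0.115 and 0.269, so that in the formula group the members stood below the background. The difference between groups was not tested. In 25 members r had the same sign in all 3 groups. The 18 libraries share depth and composition with Bmal1's own value, and irradiated 4, low in Bmal1 and in most members, weighed on the result. Without irradiated 4 the members' median r was 0.304, and the median over all genes is not given for that setting. At an unadjusted p below 0.05, edgeR's slope was then positive in 0 members (background 0.947%) and negative in 1. Over all genes, 923 of 16685 were below 0.05 in either direction. Leaving out the 2 libraries farthest from the median of Bmal1, irradiated 4 and control 6, gave a median r of 0.313 over the members and 0.159 over all genes.

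**Figure D4:**
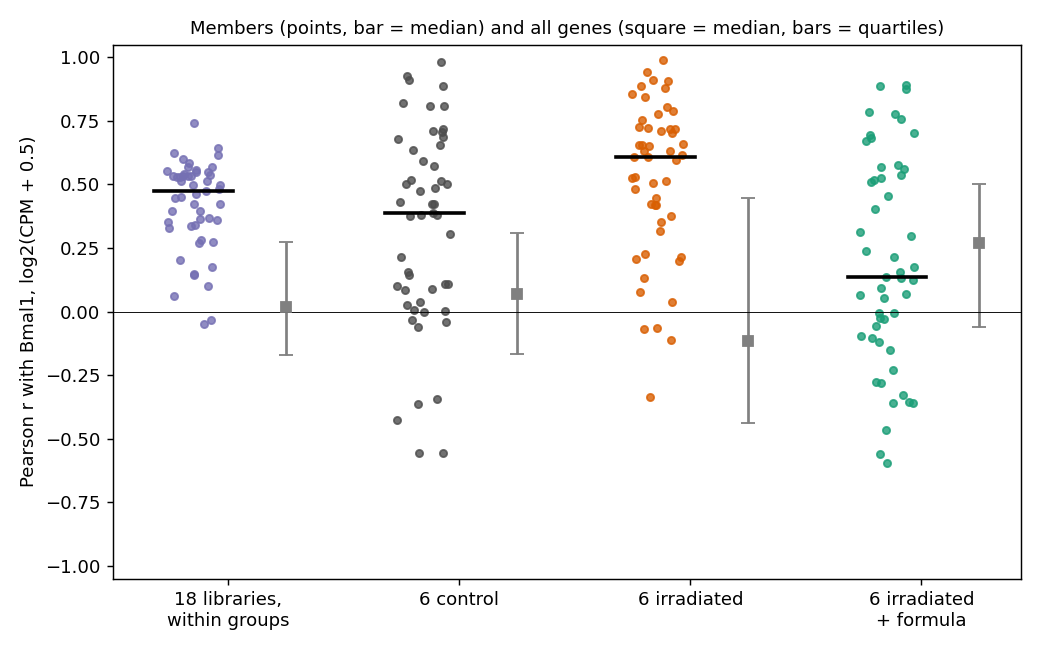
Pearson r with Bmal1 on log2(CPM + 0.5), over 18 libraries within groups and over the 6 libraries of each group; points are the 51 members with their median as a bar, and grey squares with bars are the median and quartiles of all genes above the CPM minimum. Members stand highest against the background in irradiated libraries (0.610 against -0.115) and below it with the formula (0.138 against 0.269).

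The members also varied with each other in a similar way. Over their 1275 pairs, the median r after subtraction of group means was 0.468. It was 0.350 in control, 0.584 in irradiated and 0.134 in formula libraries. The groups stood in the same order as for the correlation with Bmal1, highest in irradiated and lowest in formula libraries. The difference between groups was not tested. No such median was computed for pairs of other genes or with any library left out. These medians therefore have no background, and the weight of single libraries on them was not tested.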

How the data were processed

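Per the file headers, featureCounts 2.1.1 produced the deposited raw counts from paired-end reads aligned to mRatBN7.2, using Ensembl release 110 gene models. The submitters' processing notes also list FastQC, fastp, STAR and SAMtools; their versions are not given in the sources used here. Pairs needed both ends aligned, chimeric pairs were dropped, and neither strandedness nor pair counting was requested, per the file headers. Of counts from 1 to below 40, 66.9% to 74.6% were even in each library, so most deposited counts include both mates and are noisier than their size would imply. Coordinates are those of the table, from first to last exon. Libraries were poly(A)-selected and primed with random hexamers, per the labels' protocols, and all carry the same batch label. The labels number the samples of a group without saying that each is a separate animal, so p-values measure only the spread between these samples, which may be technical.

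The members and gene lists were chosen with earlier results of these data known. Of the table's identifiers, 0 matched the gene table at hand, so the 29 gene lists and the marker lists could not be applied, and no sequence is shown. Identifiers are printed for 2 members, chosen after their values were seen, and the others go by number. Members named were the 10 with the widest gap, the 8 most abundant, the 5 highest and 5 lowest by correlation with Bmal1, the 3 nearest the threshold, and any with all irradiated libraries below the formula libraries; members 17, 19, 26 and 46 were named after their values were seen.

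Member values are CPM over column totals. Tests used edgeR 4.0.16 in R 4.3.3 (quasi-likelihood, TMM, filterByExpr by group, 16593 genes kept, all 51 members among them) in 1 fit of 18 libraries, adjusted by Benjamini-Hochberg over all genes at 0.05. Alternatives were DESeq2 1.42.0 and voom in limma 3.58.1 with sample weights. Standard errors were derived from the F statistic and are approximate. Correlations used a pseudocount of 0.5. The scripts were tested on simulated counts. No column of per-sample values was left unused (0).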

Additional observations from a re-analysis of the deposited data

Results flagged for a closer look

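Among 85 checks in groups of 6 (27 named members and Bmal1 in each of 3 groups, and the number of members above the midpoint in the irradiated group), 7 had a library whose gap to the nearest other exceeded Dixon's 95% limit, against 4.25 expected by chance at 1 in 20. Control 2 was the low library in 3 of them. It had 8.73 CPM of member 8, 56.1 CPM of member 10 and 0.105 CPM of member 48, and it was also one of the 2 libraries apart on the first principal component.

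Control 1, with 33.9 CPM of member 7, was low in a group that otherwise reached 37.0 CPM. In the formula group, formula 4 was high in member 23 at 15.8 CPM, and formula 2 was high in member 32 at 13.7 CPM, which sets that gene's ratio of means. In the irradiated group, irradiated 2 was high in member 6 at 15.7 CPM.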

How the results depend on the processing

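The number of genes that met the rule was 79 with TMM scaling and 112 without control 2 and irradiated 4, and ran from 51 to 131 with each library left out in turn (without control 1, 79; control 2, 112; control 4, 83; formula 2, 131; formula 3, 86). With a control or formula library left out, fewer libraries must separate, so the rule is easier to meet. With the irradiated libraries left out in turn, the irradiated mean lay between the others in 31 to 47 members. The median correlation with Bmal1 was 0.138 in the formula libraries alone, 0.292 without control 2, irradiated 1 and irradiated 4 (both settings chosen after seeing the data), and 0.304 to 0.513 with each library left out. Members called in formula against irradiated were 1 with DESeq2 and 0 with each library left out. In formula against control 9 were called with DESeq2, 28 with limma-voom, 1 in a fit of 12 libraries, 2 without control 2 and irradiated 4, 2 without these and irradiated 1, and 0 to 1 with each library left out. The cause of the other shifts was not tested. Irradiated against control and the slope on Bmal1 called 0 members under every alternative run. The median log2 fold change of the members ran from 0.15 to 0.49 for irradiated against control and from 0.38 to 0.73 for formula against irradiated with each library left out. Whether replicate numbers pair the samples was not tested. Over 18 same-numbered pairs, deviations correlated between -0.529 and 0.644, with 5 pairs above 0.1. For 4 of 18 libraries the best correlation was with a library of their own number. With the replicate block, 0 members were called in each of the fits, the median log2 fold changes were 0.19 and 0.67, and the median correlation was 0.484. Depth limited values near 0, such as the 0 counts of member 48 in irradiated 4. Some members with low CPM also met the rule on few counts. In member 32 the highest control value rested on 41 counts and the lowest formula value on 42. In member 45 these values rested on 63 and 71 counts. How far depth bears on membership was not tested.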
